A study of Mus musculus with 2 samples.

Results

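The genes that make sterols and fatty acids were followed across the cells of the mouse retinal pigment epithelium (RPE) and choroid. They were 33 of the 32285 genes counted, taken by gene symbol and summed over the cells of each class in each library. Of these, 22 belong to sterol synthesis, as 8 genes of the mevalonate steps, 11 genes that turn squalene precursors into cholesterol and 3 genes that regulate or carry sterols. A further 8 make or desaturate fatty acids, and 3 encode the control proteins Srebf1, Srebf2 and Scap. The members supplied 6421 of 8036406 UMIs (unique molecular identifiers, each standing for 1 captured RNA molecule) in the cells of the first library and 7956 of 9595874 in the second. These sums were 0.0799% and 0.0829% of all UMIs in cells.

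Cells build cholesterol from acetyl-CoA through mevalonate, isoprenoids and squalene, and build fatty acids from the same acetyl-CoA through malonyl-CoA. When membrane sterol is low, Scap escorts the membrane-bound factors Srebf1 and Srebf2 to the Golgi, where they are cut and freed to enter the nucleus. Srebf2 acts mainly on sterol genes and Srebf1 mainly on fatty acid genes, while the Insig proteins hold Scap back when sterol is plentiful. The kinase complex mTORC1, which the Tsc1 protein helps to restrain, is known to favour this factor family, and the RPE handles large amounts of lipid from the photoreceptor tips that it engulfs.

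The study compared mice with the floxed Tsc1 allele Tsc1tm1Djk/J (Tsc1 flox) with mice that carried that allele together with the Best-Cre transgene (Tsc1 RPE KO), described by the submitters as an RPE-specific knockout. Both groups therefore carried the floxed allele, no group without it was profiled, and a Cre control without the floxed allele was not analysed here. Tissue of 1 male and 1 female, all 10 weeks old, went into 1 droplet library per genotype. Values given in pairs have Tsc1 flox first. With 1 library per genotype the differences below have no replicate check, no p-value is given, and every interval is a 95% interval that covers counting error only, not differences between mice, pools or preparations.

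After filtering, 1524 Tsc1 flox cells and 1853 Tsc1 RPE KO cells remained, with medians of 4525 and 4617 UMIs, and 2 cell barcodes occurred in both libraries. Clustering gave 19 clusters, which were named from marker genes, and 11 classes had at least 10 cells in each library. RPE-like cells held 12 and 46 cells, the fewest of the 11 classes in Tsc1 flox, and their RPE markers summed to 139621 and 125568 counts per 1000000 UMIs of the class (CPM), with 8 and 9 of 10 markers detected. Markers of natural killer (NK) cells in the RPE-like class stood at 31.2 and 608 CPM, and their part in the results was not tested. Tsc1 itself had 0 UMIs in RPE-like cells of both libraries, which allows levels of up to 115 and 30.7 CPM, so the deletion could not be checked there. A class led by Siglech, Flt3 and Cd209a held markers of both plasmacytoid and other dendritic cells and stayed unnamed. Its 17 and 16 cells included 6 and 5 with Siglech UMIs.

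The class with the highest summed level of the 22 sterol members was the Siglech, Flt3 and Cd209a cluster, with 1445 CPM (1294 to 1609) and 1023 CPM (872 to 1192). Classical monocyte-like cells gave 903 (848 to 960) and 808 (762 to 855) CPM, below that cluster in both libraries. A single cell held 36.8% of the cluster's sterol UMIs in Tsc1 RPE KO, and without the richest barcode of each class the order there was turned, with 692 in the cluster and 754 in classical monocyte-like cells. RPE-like cells gave 841 (554 to 1224) and 617 (484 to 774), so their interval overlapped that of the classical monocyte-like cells in each library. Rod-like cells gave 527 and 694 CPM, below RPE-like cells in Tsc1 flox and above them in Tsc1 RPE KO, and nonclassical monocyte-like cells with 511 and 518. Fibroblast-like cells gave 466 and 442, endothelial-like cells 417 and 510, and NK cell-like cells 407 and 491. B cell-like cells gave 369 and 411 and T cell-like cells 358 and 443, and neighbours in this lower range mostly had overlapping intervals. Mast cell-like cells were lowest in both libraries, at 208 (114 to 348) and 141 (56.5 to 290), from 14 and 7 UMIs.

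**Figure D1:**
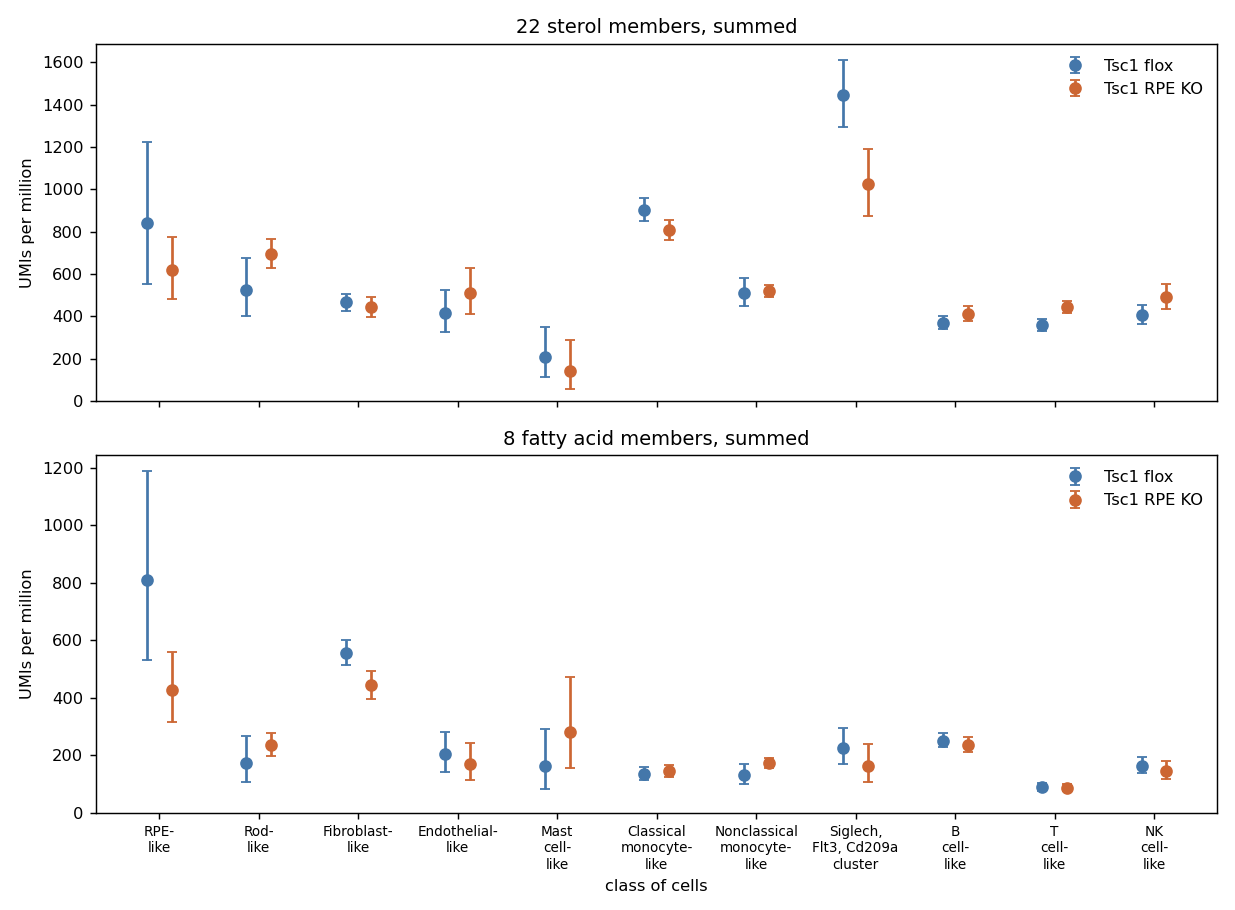
Summed level of the 22 sterol members (upper panel) and of the 8 fatty acid members (lower panel) in each class, in CPM. Points are the single libraries and bars the exact 95% Poisson intervals; the sterol sum is highest in the Siglech, Flt3 and Cd209a cluster, at 1445 and 1023, and the fatty acid sum in the RPE-like and fibroblast-like cells.

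The fatty acid members had another order across classes. RPE-like cells gave 810 (529 to 1187) and 425 (316 to 559) CPM, and fibroblast-like cells 554 (512 to 599) and 442 (397 to 491). B cell-like cells gave 250 and 234 CPM, and T cell-like cells were lowest at 87.7 and 86.8. The Siglech, Flt3 and Cd209a cluster, highest in sterol members, stood at 226 and 163, and classical monocyte-like cells at 134 and 144.

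Of the 8 mevalonate genes, Fdps, Idi1, Hmgcs1 and Mvd were highest in the Siglech, Flt3 and Cd209a cluster when both libraries were pooled. Levels pooled over both libraries are given here in CPM; each UMI marks the 3' end of 1 molecule, so no correction for transcript length applies, although capture may differ between genes. Fdps, which makes farnesyl diphosphate, reached 236 (190 to 289) in the Siglech, Flt3 and Cd209a cluster and 103 (90.7 to 116) in classical monocyte-like cells. Idi1, the isopentenyl diphosphate isomerase, stood at 133 (99.6 to 175) and 80.4 (69.7 to 92.2) in these classes. For both genes the pooled intervals of the first and second class did not overlap. Single cells held much of the cluster's Tsc1 RPE KO UMIs of both genes, however, and whether the gap holds without them was not tested. Hmgcs1, which makes HMG-CoA, stood at 82.1 (56.1 to 116) and 76.8 (66.5 to 88.4) there, but the libraries differed: the cluster gave 113 and 37.7, and classical monocyte-like cells 74.4 and 78.7. The decarboxylase Mvd, with 178 UMIs in all cells, was highest in the same 2 classes at 38.5 and 25.9.

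Other mevalonate genes had other leading classes. Pmvk, the phosphomevalonate kinase, was highest in rod-like cells at 168 (140 to 201) in the pooled libraries, of which Tsc1 RPE KO supplied 116 of 121 UMIs. In Tsc1 flox alone the Siglech, Flt3 and Cd209a cluster was higher, at 78.1 against 43.2. Ggps1, which makes geranylgeranyl diphosphate for protein prenylation, stood at 76.8 in fibroblast-like and 75.05 in rod-like cells, which could not be told apart. Mvk, the mevalonate kinase, was highest in fibroblast-like cells at 18.7 (13.1 to 25.9). Acat2, a cytosolic acetyl-CoA acetyltransferase, stood at 16.9 in T cell-like and 15.1 in B cell-like cells, with overlapping intervals.

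**Figure D2:**
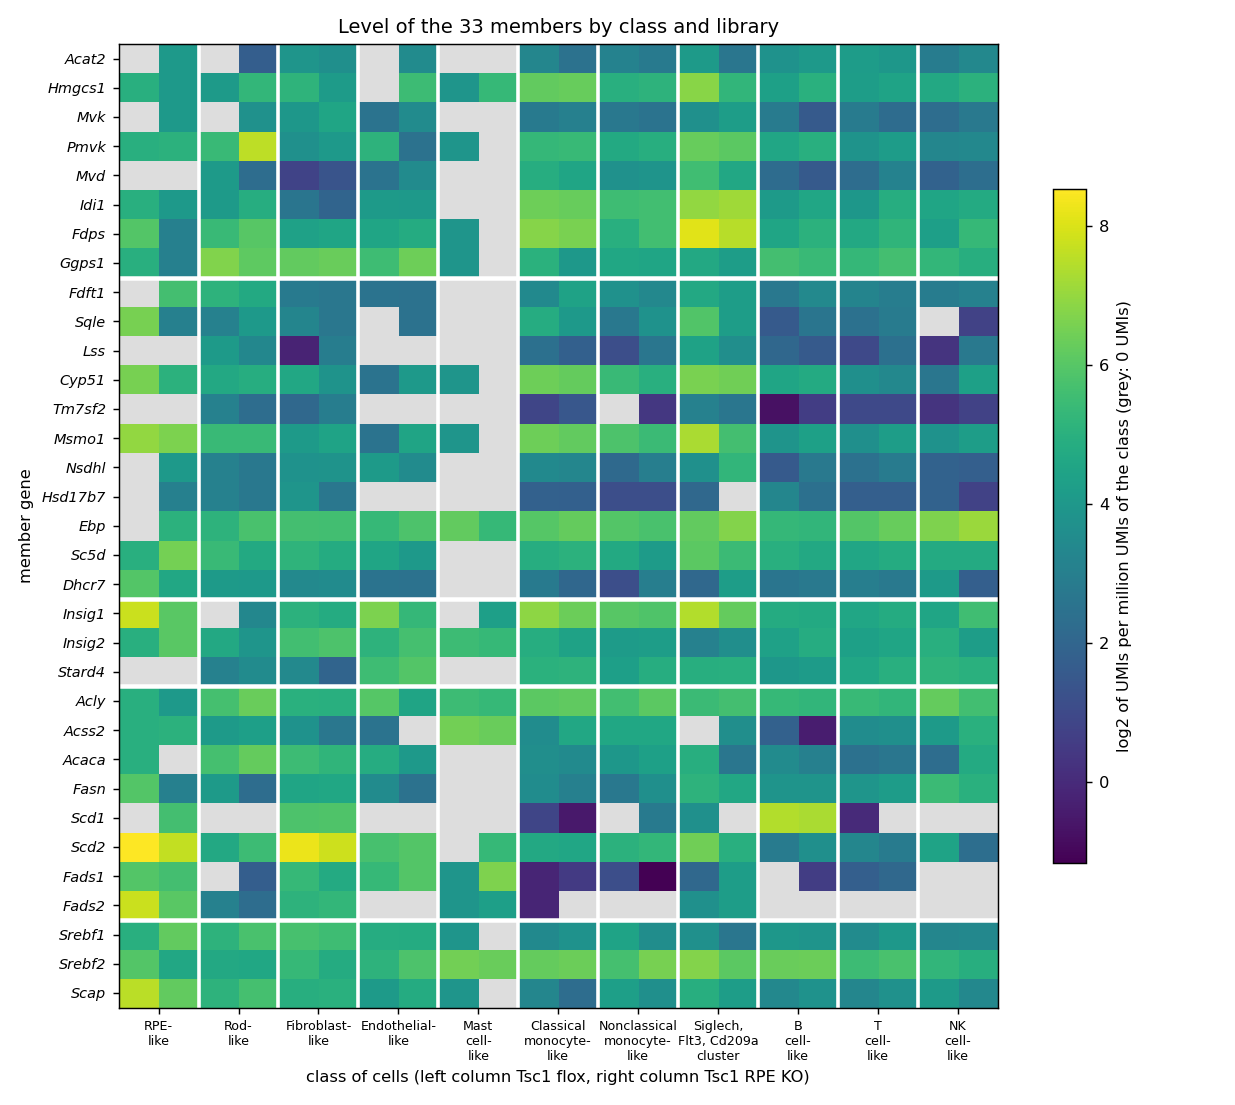
Level of each of the 33 members (rows) in each class and library (paired columns, Tsc1 flox left and Tsc1 RPE KO right), as the log2 of CPM, with grey where no UMI was counted. White lines part the mevalonate, squalene to cholesterol, regulator, fatty acid and control genes; Scd1 is bright in B cell-like cells and Pmvk in rod-like cells of Tsc1 RPE KO.

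Among the enzymes from squalene to cholesterol, Msmo1, a methylsterol oxidase, reached 115 (84.2 to 154) in the Siglech, Flt3 and Cd209a cluster and 105 (60.1 to 171) in RPE-like cells. Cyp51, the lanosterol demethylase, stood at 92.3 in that cluster and 79.6 in classical monocyte-like cells, with overlapping intervals. Ebp, a sterol isomerase, was highest in NK cell-like cells at 115 (98.1 to 134). Sc5d, which desaturates the sterol ring, stood at 78.9 (40.8 to 138) in RPE-like cells, from 1 and 11 UMIs, an interval that took in the second class at 59.0.

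The other 7 enzymes of this stretch each had under 200 UMIs in all cells. Sqle is the squalene epoxidase, Lss closes the sterol ring, Nsdhl helps remove carbons attached to the ring, and Tm7sf2 is a sterol reductase. These genes were all highest in the Siglech, Flt3 and Cd209a cluster, at 43.6, 18.0, 23.1 and 7.70 CPM in the pooled libraries. Of these only Lss was highest there in each library alone. Fdft1, the squalene synthase, and Dhcr7, the reductase that yields cholesterol from dehydrocholesterol, had pooled levels of 39.5 (14.5 to 85.9) and 32.9 (10.7 to 76.7) in RPE-like cells, which overlapped those of rod-like cells at 27.8 and 16.7. All 6 Fdft1 UMIs of RPE-like cells came from Tsc1 RPE KO. Hsd17b7, a ketosterol reductase, was highest in fibroblast-like cells of the pooled libraries at 11.4 (7.16 to 17.3). Tm7sf2 overlaps Vps51 on the same strand, so its counts are less certain.

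Of the regulators, Insig1, itself a known target of the sterol response, stood at 133 (99.6 to 175) in the Siglech, Flt3 and Cd209a cluster and 98.8 (87.0 to 112) in classical monocyte-like cells, against 8.34 (3.06 to 18.1) in rod-like cells. Insig2, its less sterol-responsive relative, stood at 59.2 in RPE-like cells, from 1 and 8 UMIs, and at 51.9 in fibroblast-like cells, and lowest in the Siglech, Flt3 and Cd209a cluster at 10.3. Stard4, which carries cholesterol through the cytosol, was highest in endothelial-like cells at 54.4 (32.7 to 84.9) and had 0 UMIs in RPE-like cells. Across the 11 classes the rank correlation with the summed level of the other sterol members, the gene itself left out, was 0.59 and 0.63 for Insig1. For Insig2 it was -0.29 and -0.57. These are descriptions over classes that share a library and differ in depth.

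Srebf2 stood at 92.3 (64.7 to 128) in the Siglech, Flt3 and Cd209a cluster and at 87.4 (76.6 to 99.2) in nonclassical monocyte-like cells, and was lowest in rod-like cells at 25.02. The nonclassical level was carried by Tsc1 RPE KO, with 213 of 236 UMIs; in Tsc1 flox it was 51.1, below B cell-like cells at 79.3. Srebf1 stood at 65.8 (31.5 to 121) in RPE-like cells, from 1 and 9 UMIs, and at 51.4 (36.2 to 70.9) in rod-like cells. Scap was highest in RPE-like cells at 98.6 (55.2 to 163) and in rod-like cells at 48.6 (33.9 to 67.6), against 7.06 (4.18 to 11.2) in classical monocyte-like cells. Across the 11 classes, the rank correlation of Srebf2 with the summed sterol level was 0.10 and -0.13, that of Srebf1 0.15 and 0.12, and that of Scap 0.54 and 0.27.

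Scd1, which places the first double bond in saturated fatty acids, had 285 UMIs in B cell-like cells of Tsc1 flox and 210 in Tsc1 RPE KO, or 172 (153 to 194) and 159 (138 to 182) CPM. Fibroblast-like cells were second with 66 and 45 UMIs, or 57.5 and 57.8 CPM. Rod-like, NK cell-like, endothelial-like and mast cell-like cells had 0 Scd1 UMIs in both libraries, while free RNA, read from barcodes of 10 to 100 UMIs, held Scd1 at 38.0 and 38.6 CPM. Both B cell-like clusters carried Scd1, with 168 and 146 CPM in the larger and 184 and 197 in the smaller.

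Scd2, a close paralog of Scd1, marked other cells. It had 352 and 172 UMIs in fibroblast-like cells, or 307 (275 to 340) and 221 (189 to 257) CPM, and 12 and 24 UMIs in RPE-like cells, or 374 (193 to 653) and 200 (128 to 298). B cell-like cells gave 7.26 and 12.8 CPM of Scd2, the reverse of the order of the paralogs in fibroblast-like cells. T cell-like cells were lowest in the pooled libraries at 8.56 CPM. Scd2 was also the only member among the 2000 variable genes used for clustering.

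Fads1 and Fads2 introduce double bonds into long polyunsaturated fatty acids. Fads2 had 7 and 8 UMIs in RPE-like cells, or 218 (87.7 to 449) and 66.7 (28.8 to 131) CPM, and 40 and 30 UMIs in fibroblast-like cells, or 34.8 and 38.6. It had 0 UMIs in both libraries in B, T and NK cell-like, endothelial-like and nonclassical monocyte-like cells. Fads1 stood at 62.3 and 50.01 CPM in RPE-like cells, 40.5 and 62.3 in endothelial-like cells and 40.1 and 27.0 in fibroblast-like cells, with 0 UMIs in NK cell-like cells. Mast cell-like cells held 1 and 5 Fads1 UMIs. Endothelial-like cells thus carried Fads1 with no UMI of Fads2.

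**Figure D3:**
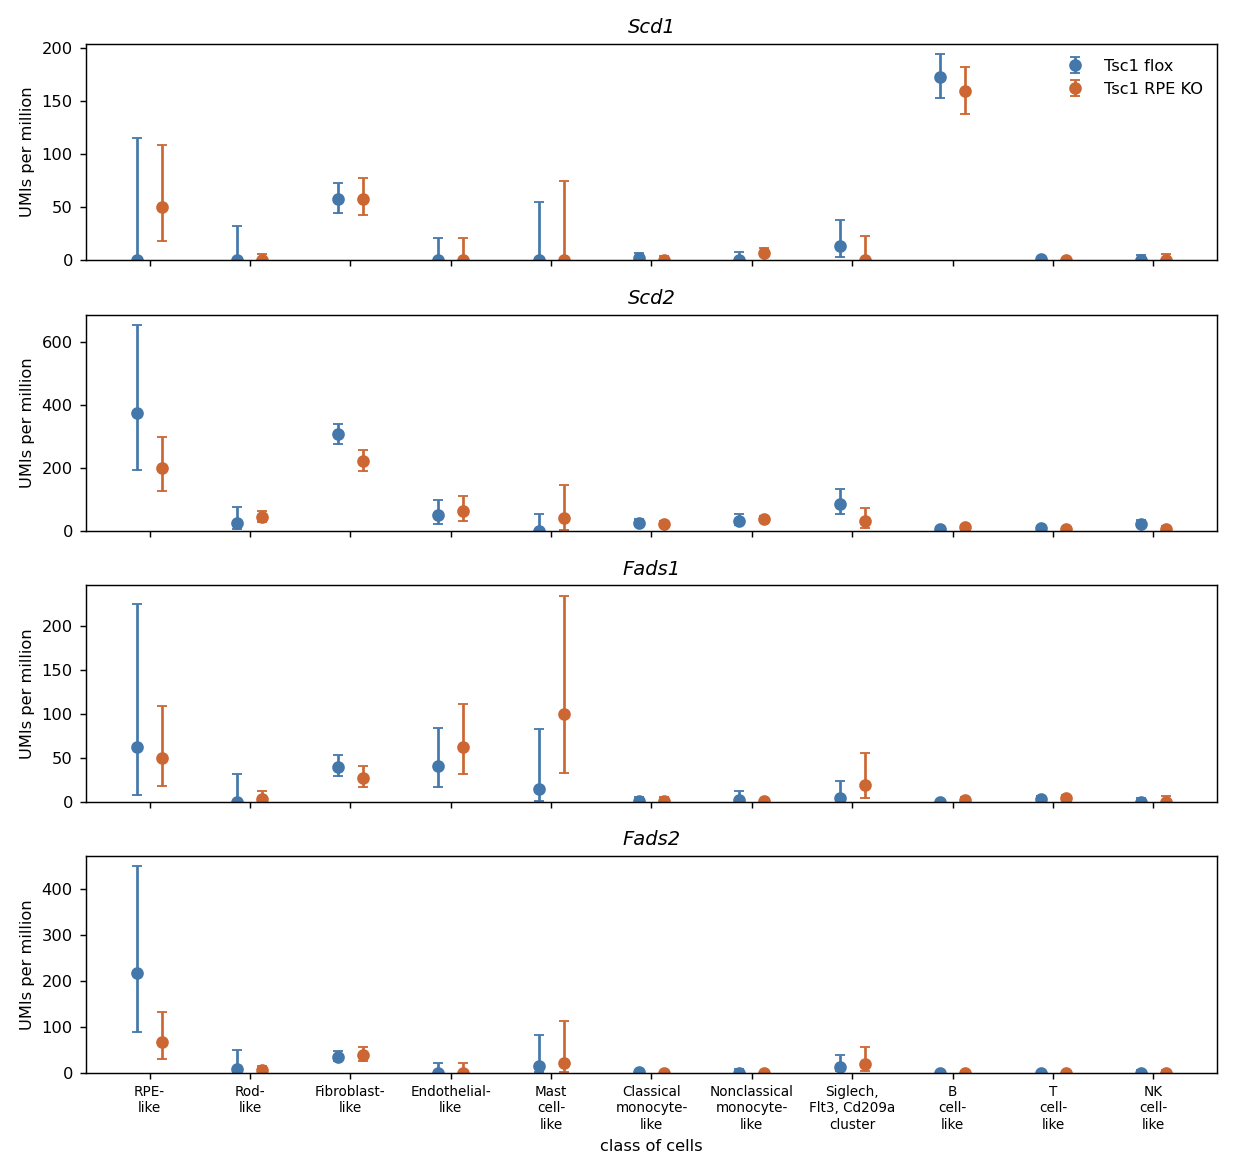
Levels of the desaturase genes Scd1, Scd2, Fads1 and Fads2 in each class, in CPM; points are the single libraries and bars the exact 95% Poisson intervals. Scd1 peaks in B cell-like cells (172 and 159), Scd2 in fibroblast-like (307 and 221) and RPE-like cells, and Fads2 in RPE-like cells (218 and 66.7).

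Acly, which splits citrate to cytosolic acetyl-CoA, stood at 76.4 CPM in rod-like and 71.4 in classical monocyte-like cells. Acaca, which makes malonyl-CoA, was highest in rod-like cells at 72.3 (54.0 to 94.8), and Fasn, the fatty acid synthase, in NK cell-like cells of the pooled libraries at 38.7 (29.0 to 50.4). Acss2, which makes acetyl-CoA from acetate, was highest in mast cell-like cells at 85.3 (40.9 to 157) from 25 cells, and lowest in B cell-like cells at 2.35.

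Promoter sequences are shown for members that lead the description of the pathway: Hmgcs1, Mvk and Insig1 for sterol synthesis and its feedback, Pmvk for its rod-like level, and Acly as a fatty acid member. Windows of 250 bases before the start of transcription came from the RefSeq promoter table (GRCm38.p6, the mm10 assembly), which matched 26 of the 33 members. Each stretch printed is the part of its window that holds no annotated exon, written 5′ to 3′ on the strand of the gene. Capitals mark CCAAT, or its reverse complement ATTGG, which NF-Y proteins bind, and the sterol response element TCACNCCAC, the site named for Srebf factors. The stretches lie at chr13:119690101-119690350 (Hmgcs1, plus strand), chr5:114444061-114444268 (Mvk, plus strand), chr5:28071162-28071362 (Insig1, plus strand), chr3:89454291-89454540 (Pmvk, plus strand) and chr11:100528001-100528250 (Acly, minus strand).
Hmgcs1: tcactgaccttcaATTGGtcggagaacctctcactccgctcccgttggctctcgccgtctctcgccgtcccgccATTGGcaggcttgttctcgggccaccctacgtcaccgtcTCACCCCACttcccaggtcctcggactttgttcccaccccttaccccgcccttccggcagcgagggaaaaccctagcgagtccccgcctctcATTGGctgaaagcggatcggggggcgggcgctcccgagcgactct
Mvk: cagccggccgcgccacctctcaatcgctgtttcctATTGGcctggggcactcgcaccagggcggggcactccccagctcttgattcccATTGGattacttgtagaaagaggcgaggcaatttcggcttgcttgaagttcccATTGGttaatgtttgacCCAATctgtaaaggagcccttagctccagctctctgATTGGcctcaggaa
Insig1: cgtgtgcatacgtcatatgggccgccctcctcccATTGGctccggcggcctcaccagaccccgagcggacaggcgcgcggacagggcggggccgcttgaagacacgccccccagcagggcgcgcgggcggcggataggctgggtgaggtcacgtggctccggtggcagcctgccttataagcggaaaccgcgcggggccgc
Pmvk: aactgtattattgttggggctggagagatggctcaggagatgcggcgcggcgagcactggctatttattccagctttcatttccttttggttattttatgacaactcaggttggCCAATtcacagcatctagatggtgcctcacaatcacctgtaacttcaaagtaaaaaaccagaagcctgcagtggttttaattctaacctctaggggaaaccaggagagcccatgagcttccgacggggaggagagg
Acly: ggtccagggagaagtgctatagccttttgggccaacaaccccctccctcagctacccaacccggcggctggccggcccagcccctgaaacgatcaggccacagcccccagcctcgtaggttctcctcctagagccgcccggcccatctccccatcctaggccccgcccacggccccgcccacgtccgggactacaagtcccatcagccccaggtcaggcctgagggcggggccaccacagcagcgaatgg

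On both strands, CCAAT occurred in at least 1 window of 17 of 18 matched sterol members, 2 of 5 fatty acid members and 2 of 3 control members, against 37.5% of 27025 genes in the table. Some genes, such as Pmvk, Insig2 and Srebf1, had more than 1 window and counted if any held the motif. The second window of Pmvk, not printed here, held no CCAAT. The stretch of Mvk held 5 copies, that of Hmgcs1 held 3, and that of Acly held none. TCACNCCAC occurred in the window of Hmgcs1 and no other matched member, against 1.22% of genes. The E-box CACGTG occurred in 5 of the 26 matched members, Hsd17b7, Sc5d, Dhcr7, Insig1 and Scap, against 6.86% of genes. No motif contains another, and a match describes the letters only.

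Between genotypes, members with 20 or more UMIs in a class, summed over the pair of libraries, were called measured there. Such a member was past the fold when the ratio of its Tsc1 RPE KO level to its Tsc1 flox level was at least 1.5 in either direction and its interval excluded 1. In RPE-like cells, where Cre is described as active, only Scd2 of the 33 members was measured, and it was not past the fold, beside 7.9% of 962 measured genes higher and 6.34% lower. Its 12 and 24 UMIs came from 5 and 12 cells and gave a ratio of 0.535 (0.257 to 1.17). Insig1, not measured with its 7 and 8 UMIs, stood at 218 (87.7 to 449) and 66.7 (28.8 to 131) CPM, a ratio of 0.306 (0.0969 to 0.990), and Msmo1, with 4 and 12 UMIs, at 125 and 100. Mvd, Lss, Tm7sf2 and Stard4 had 0 UMIs in RPE-like cells of both libraries.

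Summed over the 8 fatty acid members, RPE-like cells held 26 and 51 UMIs, a ratio of 0.525 (0.321 to 0.877). The 22 sterol members gave 27 and 74 UMIs and a ratio of 0.733 (0.466 to 1.19), and the 3 control genes 9 and 21 UMIs and a ratio of 0.624 (0.274 to 1.55). The fatty acid sum was therefore lower in Tsc1 RPE KO beyond counting error, and the sterol and control sums were not. Without the barcode richest in members in each library the fatty acid ratio was 0.559 (0.323 to 1.001). When barcodes from 500 UMIs were admitted, a choice made after seeing the data, the class grew to 42 and 93 cells. Insig1 then had 11 and 11 UMIs and a ratio of 0.377 (0.148 to 0.960), Fads2 had 11 and 10 UMIs and a ratio of 0.343 (0.131 to 0.890), and Scd2 had 23 and 36 UMIs and a ratio of 0.591 (0.341 to 1.04). The fatty acid ratio over these cells was 0.547 (0.378 to 0.798) and the sterol ratio 0.659 (0.468 to 0.935).

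Rod-like cells, which are not described as carrying active Cre, differed most in Pmvk. This kinase of the mevalonate steps had 5 UMIs in 42 cells of Tsc1 flox, or 43.2 (14 to 101) CPM, and 116 UMIs in 176 cells of Tsc1 RPE KO, or 192 (159 to 230), a ratio of 4.45 (1.85 to 14). The richest cell held 6.03% of the Tsc1 RPE KO UMIs. The larger rod-like cluster had 0 UMIs in 25 Tsc1 flox cells and 104 in 156 Tsc1 RPE KO cells, and the smaller one 5 in 17 and 12 in 20 cells. In free RNA Pmvk stood at 32.4 and 66.0 CPM. In the rod-like class the 5 cone markers summed to 725 and 2584 CPM, with 4 and 5 detected, and the 9 rod markers to 88980 and 69587, with 9 detected in each library. The part of these shifts in the result was not tested. In the other classes with at least 20 UMIs its levels lay closer together, such as 39.4 and 41.8 in classical monocyte-like cells and 24.2 and 31.0 in B cell-like cells.

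Pmvk was the 1 member past the fold among 15 measured in rod-like cells, beside 3.84% of 5568 measured genes higher and 2.03% lower. Of the 15, 11 had ratios above 1 and 4 below, with a median log2 ratio of 0.58 beside 0.11 over all measured genes. The sterol ratio was 1.32 (1.01 to 1.75), and 1.22 (0.933 to 1.63) when libraries were scaled by the median ratio of genes, where Pmvk stood at 4.13. The mevalonate sum, which includes Pmvk, was 28 and 251 UMIs with a ratio of 1.72 (1.16 to 2.64), and the sum from squalene to cholesterol 29 and 146 UMIs with a ratio of 0.966 (0.645 to 1.49). Ggps1, with 12 and 42 UMIs, stood at 104 and 69.6 CPM, and Acly, with 6 and 49 UMIs, at 51.8 and 81.2.

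In the Siglech, Flt3 and Cd209a cluster, 4 of 11 measured members were past the fold, and each was lower in Tsc1 RPE KO. Hmgcs1 had 26 and 6 UMIs, or 113 (73.7 to 165) and 37.7 (13.8 to 81.9) CPM, a ratio of 0.334 (0.112 to 0.829). Msmo1 had 37 and 8 UMIs and a ratio of 0.313 (0.126 to 0.682), and Insig1 40 and 12 UMIs and a ratio of 0.434 (0.207 to 0.844). Scd2, with 20 and 5 UMIs, had a ratio of 0.362 (0.106 to 0.993). These 4 stood beside 6.25% of 2928 measured genes lower and 2.73% higher. Fdps, the most abundant member there, had 63 and 29 UMIs and a ratio of 0.666 (0.413 to 1.05), and the ratios of Idi1, with 29 and 23 UMIs, and Ebp, with 17 and 17, were above 1, at 1.15 (0.634 to 2.05) and 1.45 (0.694 to 3.01). Single Tsc1 RPE KO cells held 48.3% of the Fdps and 60.9% of the Idi1 UMIs of that group, and without the richest barcode in each library the ratios were 0.357 and 0.522.

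The median log2 ratio of the 11 measured members in that cluster was -0.65, beside -0.05 over all measured genes, and the sterol sum had 333 and 163 UMIs and a ratio of 0.708 (0.583 to 0.856). Single cells ranged from 170 to 4403 CPM for the sterol sum in Tsc1 flox and from 116 to 5671 in Tsc1 RPE KO, with medians of 1175 and 644. A single Tsc1 RPE KO cell held 36.8% of the sterol UMIs of its group, and without the richest barcode in each library the ratio was 0.524 (0.414 to 0.659). The makeup of the cluster differed too: Cd209a, a marker of dendritic cells, had 47 and 9 UMIs, or 204 and 56.5 CPM. The 7 B cell markers summed to 950 and 276 CPM. Siglech, with 135 and 100 UMIs, stood at 586 and 628 CPM, and the 5 plasmacytoid dendritic markers summed to 3883 and 4424. The 6 dendritic markers summed to 499 and 276 CPM with 5 detected in each library, and the part of these shifts in the result was not tested.

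**Figure D4:**
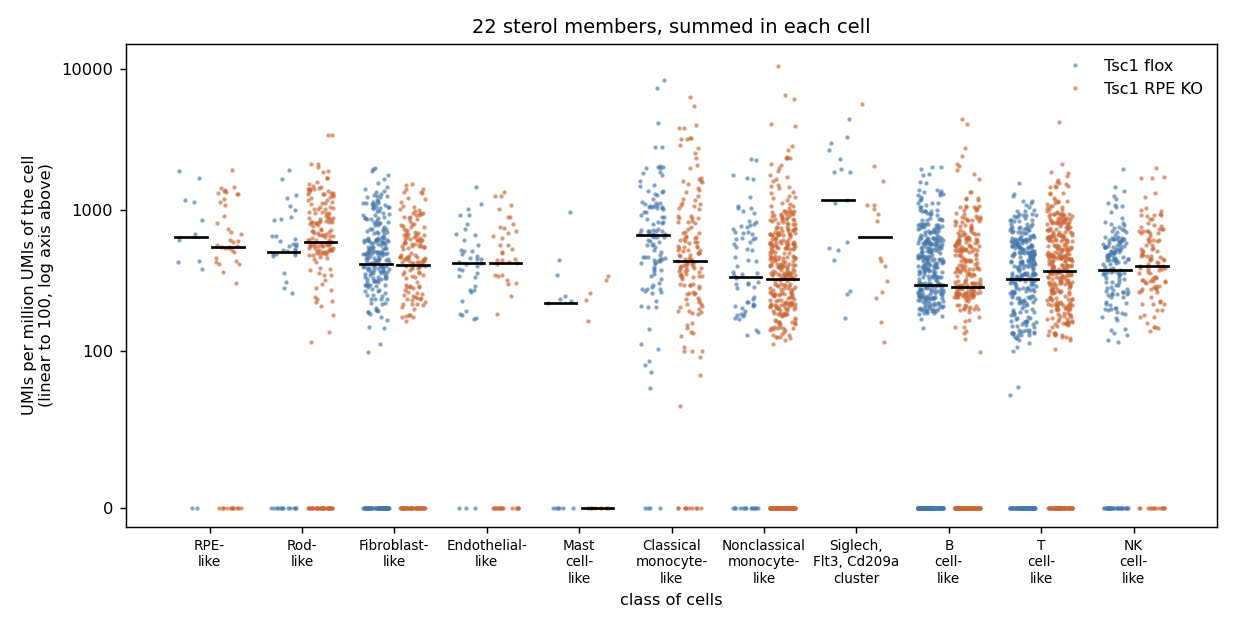
Summed level of the 22 sterol members in every cell, in counts per 1000000 UMIs of the cell, on an axis that is linear to 100 and logarithmic above; points are cells, black lines medians over cells. Cells of the Siglech, Flt3 and Cd209a cluster range from 116 to 5671, with a Tsc1 flox median of 1175 and a Tsc1 RPE KO median of 644.

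In classical monocyte-like cells, Insig1, Fdps and Idi1 were the most abundant members. Insig1 had 134 and 118 UMIs, or 120 (101 to 142) and 82.2 (68.1 to 98.5) CPM, a ratio of 0.684 (0.530 to 0.883) that did not reach the fold. Fdps stood at 110 and 96.9 CPM and Idi1 at 84.3 and 77.3, with intervals of the ratio that included 1. Fdft1 had 12 and 31 UMIs and a ratio of 2.01 (1.0025 to 4.29), with a lower bound barely above 1, and Acss2 13 and 36 UMIs and a ratio of 2.15 (1.11 to 4.42). Ggps1 had 37 and 23 UMIs and a ratio of 0.483 (0.274 to 0.835). Thus 2 of 24 measured members were higher and 1 lower, beside 4.42% of 7604 measured genes higher and 3.58% lower.

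These calls depended on which cells entered the class. Fdft1 had a ratio of 0.970 when barcodes from 1000 UMIs were admitted, and Acss2 a ratio of 0.933 when the members and the other pathway genes were left out of the variable genes. Without the barcode richest in members in each library, 0 members were higher. Macrophage markers in the class, all 8 of 8 detected in both libraries, summed to 1063 and 1441 CPM, and the 6 neutrophil markers to 61.0 and 603, with 4 and 6 detected. C1qa, a macrophage marker, had 50 and 171 UMIs, from 2 and 7 cells. The part of these shifts was not tested. The sterol sum had 1007 and 1159 UMIs and a ratio of 0.894 (0.821 to 0.974).

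T cell-like cells differed by small amounts that mostly ran one way. Idi1 had 32 and 61 UMIs, or 15.8 (10.8 to 22.3) and 29.6 (22.6 to 38.0) CPM, a ratio of 1.88 (1.20 to 2.97). It was the 1 of 27 measured members past the fold, beside 3.43% of 8814 measured genes higher and 1.78% lower. Fdps had 52 and 76 UMIs with a ratio of 1.44 (0.998 to 2.09), and Ebp, the most abundant member of the class, 124 and 160 UMIs with a ratio of 1.27 (0.998 to 1.62). Of the 19 measured sterol members, 14 had ratios above 1 and 5 below, with a median log2 ratio of 0.34 beside 0.04 over all measured genes. Their sum over all 22 members had 727 and 914 UMIs, or 358 and 443 CPM, a ratio of 1.24 (1.12 to 1.37).

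The sterol sum of T cell-like cells was higher in Tsc1 RPE KO in each of their 4 clusters, at 325 and 425, 304 and 369, 386 and 462, and 554 and 589 CPM. The interval of the ratio excluded 1 in the first of these, at 1.31 (1.09 to 1.57), and barely in the second, at 1.21 (1.001 to 1.47). The cluster with the highest sum in both libraries was the one that held most of the T cell-like UMIs of Mki67, a proliferation gene, at 33 and 78 UMIs. Proliferation markers summed to 183 and 345 CPM in T cell-like cells and NK markers to 641 and 1628, and their part in the result was not tested. The fatty acid sum of the class did not differ beyond counting error, with a ratio of 0.990 (0.800 to 1.22).

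NK cell-like cells had higher Fdps and Insig1 in Tsc1 RPE KO. Fdps had 16 and 24 UMIs, or 19.8 and 40.8 CPM, with a ratio of 2.06 (1.05 to 4.15), and Insig1 19 and 28 UMIs with a ratio of 2.02 (1.09 to 3.83). Acaca had 4 and 16 UMIs and a ratio of 5.49 (1.77 to 22.6), while Scd2 had 18 and 3 UMIs and a ratio of 0.229 (0.0432 to 0.784). In all, 3 of 17 measured members were higher and 1 lower, beside 2.42% of 6498 measured genes higher and 3.03% lower. Without the barcode richest in members, Scd2 had under 20 UMIs and 0 members counted as lower. The sterol sum had 329 and 289 UMIs and a ratio of 1.21 (1.03 to 1.42), and Ebp, the most abundant member, had 82 and 79 UMIs and a ratio of 1.32 (0.959 to 1.82).

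In nonclassical monocyte-like cells, with 78 and 403 cells, Srebf2 differed. It had 23 and 213 UMIs, or 51.1 (32.4 to 76.6) and 94.6 (82.3 to 108) CPM, a ratio of 1.85 (1.20 to 2.99). Srebf1, with 10 and 27 UMIs, had a ratio of 0.540 (0.253 to 1.25), and Scap, with 9 and 29 UMIs, 0.645 (0.297 to 1.55). Srebf2 was the 1 of 25 measured members past the fold, beside 4.51% of 7924 measured genes higher and 4.16% lower. In this class the 5 erythroid markers summed to 251 and 1205 CPM, with 4 detected in each library, and the share of free RNA, estimated from haemoglobin genes among these markers, was 0.266% and 3.23%; their part was not tested. The sterol sum was nearly equal at 511 and 518 CPM, a ratio of 1.02 (0.881 to 1.18), and the fatty acid sum had a ratio of 1.32 (1.004 to 1.77). Scd1, not measured there, had 0 UMIs in Tsc1 flox, which allows up to 8.19 CPM, and 16 UMIs, or 7.11 (4.06 to 11.5) CPM, in Tsc1 RPE KO.

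Fibroblast-like cells had lower Hmgcs1, the HMG-CoA synthase, with 41 UMIs, or 35.7 (25.6 to 48.4) CPM, in Tsc1 flox and 14 UMIs, or 18.0 (9.84 to 30.2), in Tsc1 RPE KO. Its ratio was 0.504 (0.254 to 0.944), and it was the 1 of 26 measured members past the fold, beside 3.08% of 9591 measured genes higher and 4.37% lower. Scd2 had a ratio of 0.721 (0.597 to 0.868), inside the fold, and Scd1 one of 1.01 (0.673 to 1.49). The Scd2 difference lay in the larger fibroblast-like cluster, at 307 and 204 CPM, while the smaller one gave 305 and 294; the difference between clusters was not tested. The fatty acid sum had 636 and 344 UMIs and a ratio of 0.798 (0.698 to 0.912), and the sterol sum a ratio of 0.949 (0.826 to 1.09).

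In B cell-like cells 0 of 23 measured members were past the fold, beside 2.06% of 8075 measured genes higher and 2.81% lower. Scd1 had a ratio of 0.920 (0.766 to 1.10), Srebf2, with 131 and 109 UMIs, 1.04 (0.799 to 1.35), and Ggps1, with 83 and 57 UMIs, 0.858 (0.601 to 1.22). The sterol sum stood at 395 and 370 CPM in the larger B cell-like cluster and at 298 and 537 in the smaller, with ratios of 0.937 (0.816 to 1.08) and 1.80 (1.43 to 2.27). In endothelial-like cells 0 of 3 measured members were past the fold, beside 4.2% of 3498 measured genes higher and 4.12% lower. Insig1 had 17 and 7 UMIs there, or 98.3 and 39.6 CPM, with a ratio of 0.403 (0.141 to 1.02). Mast cell-like cells had no measured member. Acss2, their most abundant one, had 6 and 4 UMIs.

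**Figure D5:**
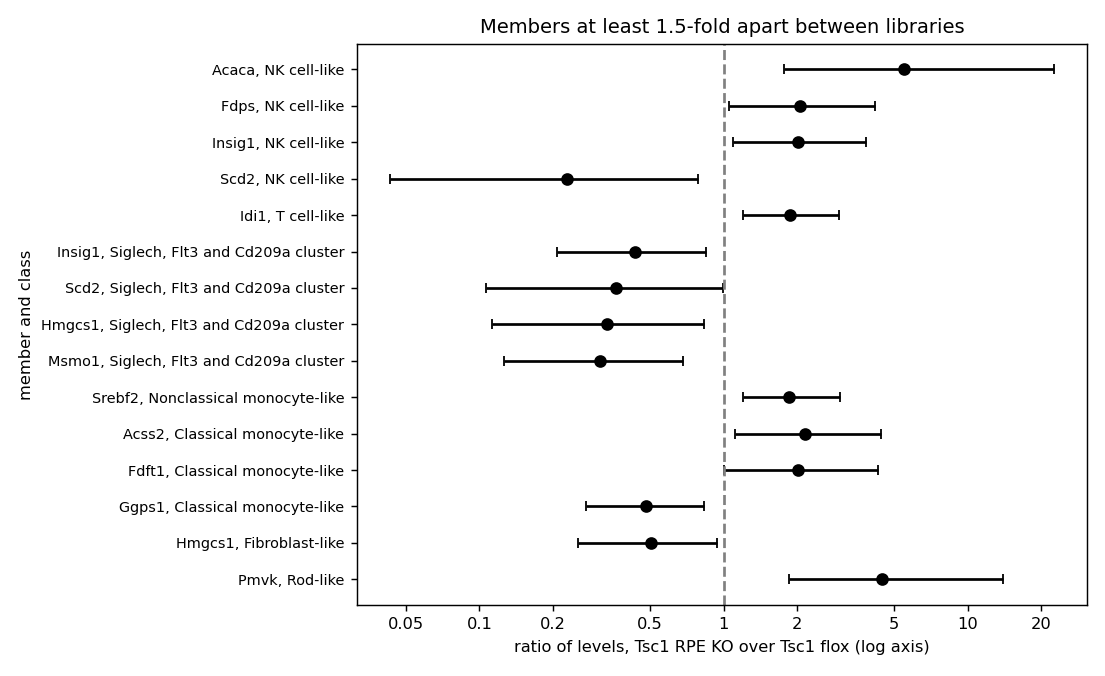
Ratio of the level in Tsc1 RPE KO to that in Tsc1 flox on a log axis for the members past the fold, each with its class; bars are exact conditional binomial 95% intervals and the dashed line marks a ratio of 1. Pmvk in rod-like cells, at 4.45, and Acaca in NK cell-like cells, at 5.49, have the highest ratios, and the members of the Siglech, Flt3 and Cd209a cluster all lie below 1.

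Insig1 was past the fold in 2 classes and Hmgcs1 and Scd2 each in 2 as well. Insig1 was higher in NK cell-like cells and lower in the Siglech, Flt3 and Cd209a cluster, while Hmgcs1 and Scd2 were lower in each of their classes. The other members past the fold, Pmvk, Idi1, Fdps, Ggps1, Fdft1, Msmo1, Acss2, Acaca and Srebf2, each were so in 1 class. The remaining 21 members were past the fold in no class, and Lss and Tm7sf2 were measured in none.

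A second list of 33 genes of lipid supply, export and storage was read in the same way. In B cell-like cells 1 of 17 measured was higher, beside 2.06% of all measured genes. It was Mid1ip1, a partner of Acaca, with 19 and 32 UMIs and a ratio of 2.1 (1.16 to 3.93). In classical monocyte-like cells 1 of 23 was higher, beside 4.42% of all measured genes. It was Nr1h3, the sterol-sensing receptor LXR alpha, with 7 and 87 UMIs and a ratio of 9.66 (4.49 to 24.7). Macrophage markers in that class summed to 1063 and 1441 CPM and neutrophil markers to 61.0 and 603, and their part in this ratio was not tested. Nonclassical monocyte-like cells also had higher Nr1h3, with 8 and 116 UMIs and a ratio of 2.90 (1.42 to 6.88); a single cell held 75% of the Tsc1 flox UMIs.

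In those nonclassical cells, 2 of 22 measured genes of the list were higher and 2 lower, beside 4.51% and 4.16% of all measured genes. The second higher gene was Aacs, which activates acetoacetate, with 0 and 25 UMIs. Its ratio was 1.67 with the count summed over the Tsc1 flox cells set to the floor of 3, so the value depends on that floor. The lower ones were the sterol exporter Abcg1, with 65 and 190 UMIs and a ratio of 0.585 (0.439 to 0.788), and Apoe, the apolipoprotein, with 2308 and 4885 UMIs and a ratio of 0.424 (0.403 to 0.445). In T cell-like cells 1 of 21 was higher, beside 3.43% of all measured genes. It was again Apoe, with 58 and 205 UMIs and a ratio of 3.48 (2.59 to 4.74). Single cells held 82.8% and 49.8% of these UMIs.

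In RPE-like cells 2 of 4 measured genes of that list were higher, beside 7.9% of all 962 measured genes. Elovl1, a fatty acid elongase, had 1 and 115 UMIs, a ratio of 30.8 (5.41 to 1225), and Soat1, which esterifies cholesterol for storage, had 1 and 39 UMIs, a ratio of 10.4 (1.77 to 422). The richest cell held 8.70% of the 115 Elovl1 UMIs and 12.8% of the 39 Soat1 UMIs. Both genes had Tsc1 flox levels that rest on a single molecule.

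In fibroblast-like cells 2 of 25 were lower, beside 4.37% of all measured genes. Mbtps1, the protease that makes the first cut in the Srebf proteins, had 130 and 58 UMIs and a ratio of 0.659 (0.475 to 0.904). Elovl6 had 20 and 3 UMIs and a ratio of 0.221 (0.0421 to 0.747).

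Single genes of the list stood apart in the remaining classes. Abca1, a sterol exporter, was the 1 of 10 higher in endothelial-like cells, beside 4.2% of all measured genes. It had 13 and 32 UMIs and a ratio of 2.41 (1.23 to 5.00). Acsl3, which activates fatty acids, was the 1 of 13 higher in rod-like cells, beside 3.84% of all measured genes. It had 6 and 74 UMIs and a ratio of 2.37 (1.04 to 6.65). None of 15 measured genes of the list was past the fold in NK cell-like cells, beside 2.42% of all measured genes higher and 3.03% lower.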

How the data were processed

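Droplet single-cell RNA was counted by the authors in 2 libraries, 1 per genotype, and the deposited values are raw UMI counts per gene and barcode with no barcode filter (10771118 and 12574364 UMIs). Per the submitters' processing notes Cell Ranger 2.1.1 and the build mm10 were used, while the matrix header names Cell Ranger 4; which made the counts is not given in the sources used here. The labels' protocols give digestion of eye cups without neural retina, a sort for live cells and a 3' kit.

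Barcodes kept as cells reached 10% of the UMIs at percentile 99 among the 3000 richest (1487 and 1374), with at least 200 genes and at most 20% mitochondrial UMIs; Scrublet in scanpy 1.11.5 removed 8 and 19 doublets. The 2000 most variable genes, 30 principal components and leidenalg 0.10.2 at resolution 1 gave the clusters. They were named where at least 3 markers were each in 10% of cells and 2-fold above the other clusters. The top 10 genes also had to hold fewer markers of any other class than of its own, or none of another class. The mean log2 fold of the class's markers had to exceed 1, and the names may differ from the study's. The naming rule was tightened after the clusters were seen. Counts were summed per class and library and given per 1000000 UMIs, with exact Poisson intervals, and ratios with exact conditional binomial intervals (scipy 1.17.1). A gene with 0 UMIs in 1 library took a floor of 3 counts. Genes named between genotypes are the members past the fold and some, not all, of the 3 most abundant in each class. Others named to account for all members or for the pathway list were chosen after their values were seen. The members and lists were chosen with earlier results of these data known. The ratio procedure was tested on simulated data. Alternatives were the UMI minimum, clustering without the members and other pathway genes, a lower resolution, median ratio scaling, subtraction of free RNA, removal of mixed barcodes, the fold and the UMIs needed to be measured. Results for some genes of the pathway list are not reported here.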

Additional observations from a re-analysis of the deposited data

Results flagged for a closer look

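The ratio of Insig1, which holds back the Srebf factors, between Tsc1 RPE KO and Tsc1 flox ran in opposite directions in 2 classes. It was 2.02 in NK cell-like cells, from 19 and 28 UMIs, and 0.434 in the Siglech, Flt3 and Cd209a cluster, from 40 and 12 UMIs. Each interval excluded 1, with 1 library per genotype, and the difference between the classes was not tested.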

How the results depend on the processing

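No paired analysis was possible because each genotype was 1 library and the labels give no shared replicate numbers. Median ratio scaling and subtraction of free RNA were run on ratios and counts; they moved no ratio beyond its counting interval and no count by over 1.5 times. Classical monocyte-like cells moved most, and their cells changed with the clustering. They held 62 and 45 cells from 1000 UMIs, and 118 and 112 with the members and the other pathway genes left out of the variable genes. Of the members, only Scd2 was among these variable genes. In that setting nonclassical monocyte-like cells held 91 and 459 cells, beside 78 and 403 before, and the Siglech, Flt3 and Cd209a cluster had no class of its own. At resolution 0.5 classical monocyte-like cells held 131 and 168 cells, which took in that cluster. From 1000 UMIs their sterol ratio was 0.722, the sterol levels 651 and 470 and the fatty acid levels 111 and 115 CPM, 0 members were higher, and Fdft1 reversed to 0.970. With both lists left out, their sterol ratio was 0.771, the Tsc1 flox sterol level 996, the fatty acid ratio 0.817, the Tsc1 RPE KO fatty acid level 123, 0 members were higher and 4 lower, and Acss2 reversed to 0.933. At resolution 0.5, 1 member was higher and 3 lower and the Tsc1 flox sterol level was 996; with mixed barcodes left out, 1 was higher and 2 lower; counted from 50 UMIs, 0 were higher. Without the barcode richest in members, a choice made after seeing the data, 0 were higher, and their sterol levels were 833 and 754. The same choice gave the Siglech, Flt3 and Cd209a cluster a sterol ratio of 0.524 and a Tsc1 RPE KO level of 692, nonclassical monocyte-like cells of Tsc1 RPE KO a level of 481, 1 lower member in endothelial-like and 0 in NK cell-like cells. Nonclassical monocyte-like sterol levels were 612 and 599 with both lists left out, 589 and 592 from 500 UMIs (chosen after seeing the data), and 554 in Tsc1 RPE KO from 1000 UMIs, with 1 lower member in the first and second of these settings. In the second setting this member was Insig1, with 51 and 146 UMIs and a ratio of 0.617 (0.446 to 0.867). From 500 UMIs RPE-like cells had 2 lower members and T cell-like cells 2 higher, as T cell-like cells also did with mixed barcodes left out. At a fold of 2 the counts were 0 in T cell-like (higher), nonclassical monocyte-like (higher) and fibroblast-like cells (lower). Counted from 50 UMIs, NK cell-like cells had 0 higher and 0 lower and the Siglech, Flt3 and Cd209a cluster 1 lower member. That cluster had no class of its own at 1000 or 500 UMIs, at resolution 0.5 or with both lists left out, and classical monocyte-like cells had none from 500 UMIs, so no values are given there. The cause of these shifts was not tested. Shares over all measured genes are not given for these changed settings. Their counts of members past the fold are therefore not read as results about the members. Few UMIs limited mast cell-like and RPE-like cells, with 0 and 1 measured members.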
